A study of Mus musculus with 16 samples.

Results

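The Sox genes encode transcription factors that share a DNA-binding domain, the HMG box. Members of the SoxC group (Sox4, Sox11 and Sox12) and the SoxD group (Sox5, Sox6 and Sox13) were described in 16 RNA-seq libraries of mouse T cell leukaemia (T-ALL). The rows were chosen by symbol, and they are 6 of the 41214 gene rows in the files; the choice drew on measured values, since Sox11 had stood apart between Miz1 genotypes in p53-deficient leukaemias. Miz1 (gene symbol Zbtb17) is a zinc finger transcription factor whose POZ domain mediates protein contacts, and the study compared leukaemias with full-length Miz1 (wt) with leukaemias in which that domain was deleted (deltaPOZ). ICN, the activated form of Notch in common usage, induced the disease in 12 of the mice.

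There were 8 groups of 2 mice on a C57Bl6 background. With p53 wt and ICN, the groups were Miz1 wt, deltaPOZ with the title suffix Lck and deltaPOZ with the title suffix Vav. With p53 ko and ICN, the same 3 Miz1 groups were present. With p53 ko and no ICN, there were Miz1 wt and deltaPOZ Vav. The sources used here do not explain what the Lck and Vav suffixes stand for, and they give no organ, sex or age. Replicate numbers below only name the libraries of a group. Each library is 1 mouse, so p-values measure the spread between single mice.

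As background, the 3 SoxC factors carry the HMG box and a C-terminal activation domain and act in progenitors of many tissues. Sox4 is required for early B cell development and takes part in T cell development, and Sox11 is best known from neural progenitors and from mantle cell lymphoma, where it is expressed aberrantly. SoxD factors have a coiled-coil domain, lack an activation domain of their own and modify transcription together with partner proteins. Sox6 takes part in erythroid maturation and globin switching, Sox5 and Sox6 act together in cartilage, and Sox13 marks and helps to specify gamma-delta T cells.

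Sox4 (ENSMUSG00000076431) lies at chr13:28948919-28953713, Sox11 (ENSMUSG00000063632) at chr12:27334264-27342574 and Sox12 (ENSMUSG00000051817) at chr2:152393611-152398063 in GRCm38. All 3 SoxC genes are annotated as a single exon, and their exon lengths are 4795, 8311 and 4453 bases. Sox5 (ENSMUSG00000041540) lies at chr6:143828425-144781977, Sox6 (ENSMUSG00000051910) at chr7:115470872-116038796 and Sox13 (ENSMUSG00000070643) at chr1:133382303-133424377. The SoxD genes are split by introns, with 14376, 14832 and 4312 bases of exon. All 6 genes are on the minus strand.

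The sequence just before the start of the 4 genes on which the results turn is shown so that promoters of genes with opposite behaviour can be read side by side. It comes from RefSeq (GRCm38.p6), on the minus strand, and only bases outside the annotated gene are printed, 236 for Sox4, 250 for Sox11, 198 for Sox6 and 85 for Sox13. Capitals mark matches to motifs searched on both strands.
Sox4, chr13:28953714-28953949: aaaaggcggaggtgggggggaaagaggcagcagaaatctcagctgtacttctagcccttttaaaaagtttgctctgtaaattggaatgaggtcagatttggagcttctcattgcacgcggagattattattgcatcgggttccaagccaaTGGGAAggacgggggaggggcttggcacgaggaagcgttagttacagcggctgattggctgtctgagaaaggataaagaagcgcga
Sox11, chr12:27342719-27342968: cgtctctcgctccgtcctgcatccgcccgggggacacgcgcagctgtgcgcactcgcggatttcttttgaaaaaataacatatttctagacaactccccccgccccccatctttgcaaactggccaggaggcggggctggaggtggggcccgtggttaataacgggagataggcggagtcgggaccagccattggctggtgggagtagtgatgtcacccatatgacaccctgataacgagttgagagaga
Sox6, chr7:116038797-116038994: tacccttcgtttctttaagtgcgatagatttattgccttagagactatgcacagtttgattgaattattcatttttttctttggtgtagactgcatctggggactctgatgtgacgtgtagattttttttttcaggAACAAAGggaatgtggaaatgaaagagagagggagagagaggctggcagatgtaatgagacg
Sox13, chr1:133424378-133424462: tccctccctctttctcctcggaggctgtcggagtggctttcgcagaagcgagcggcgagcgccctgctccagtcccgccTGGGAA

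In the 250 bases before each RefSeq start, TGGGAA, the core of the site bound by the Notch partner RBPJ, occurred in Sox4 (first base at -100) and in Sox13 (at -171). It occurred in 21.6% of all 32536 promoter windows of that length. AACAAAG, a form of the motif bound by Sox and TCF factors, occurred in Sox6 at -114 and in 5.02% of windows. Sox6 has 6 RefSeq starts, and the most upstream one was used. The GATA factor motif AGATAA, present in 9.97% of windows, matched none of the 6. The same held for AACAAT, another Sox motif, present in 9.35% of windows, and for the E-box CACGTG, present in 6.04% of windows. The palindrome ATCGAT, present in 0.735% of windows, and the p53 half-site, present in 7.12%, had no match either. None of the searched letters matched in Sox11, Sox12 or the single RefSeq start of Sox5, which lies inside the gene and is not printed. The motifs do not overlap one another, and a match is a string of letters, not a measured binding site.

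The libraries held 36463524 to 68523196 counts in genes. Trp53, the gene of p53, was at 70.2 to 113 CPM (counts scaled to a common library total after correction for composition) in the 6 p53 wt libraries, at 14.0 to 30.6 in the 6 ICN p53 ko libraries and at 7.32 to 21.8 in the 4 without ICN. Zbtb17 was counted in every library, and counts over the whole gene do not show whether the POZ domain is missing. A list of 12 T cell markers summed to 2453 to 5821 CPM in ICN libraries and to 5025 to 12157 CPM without ICN, with no marker at 0 in any group as a whole. The libraries with ICN also held RNA of other blood cells. Their 11 erythroid markers summed to 5168 to 27706 CPM, against 2.80 to 38.2 CPM without ICN, and their 8 neutrophil markers to 50.4 to 8998 CPM, against 0.926 to 1.65 CPM. In bulk RNA, fewer cells of a type and less RNA per cell cannot be told apart.

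**Figure D1:**
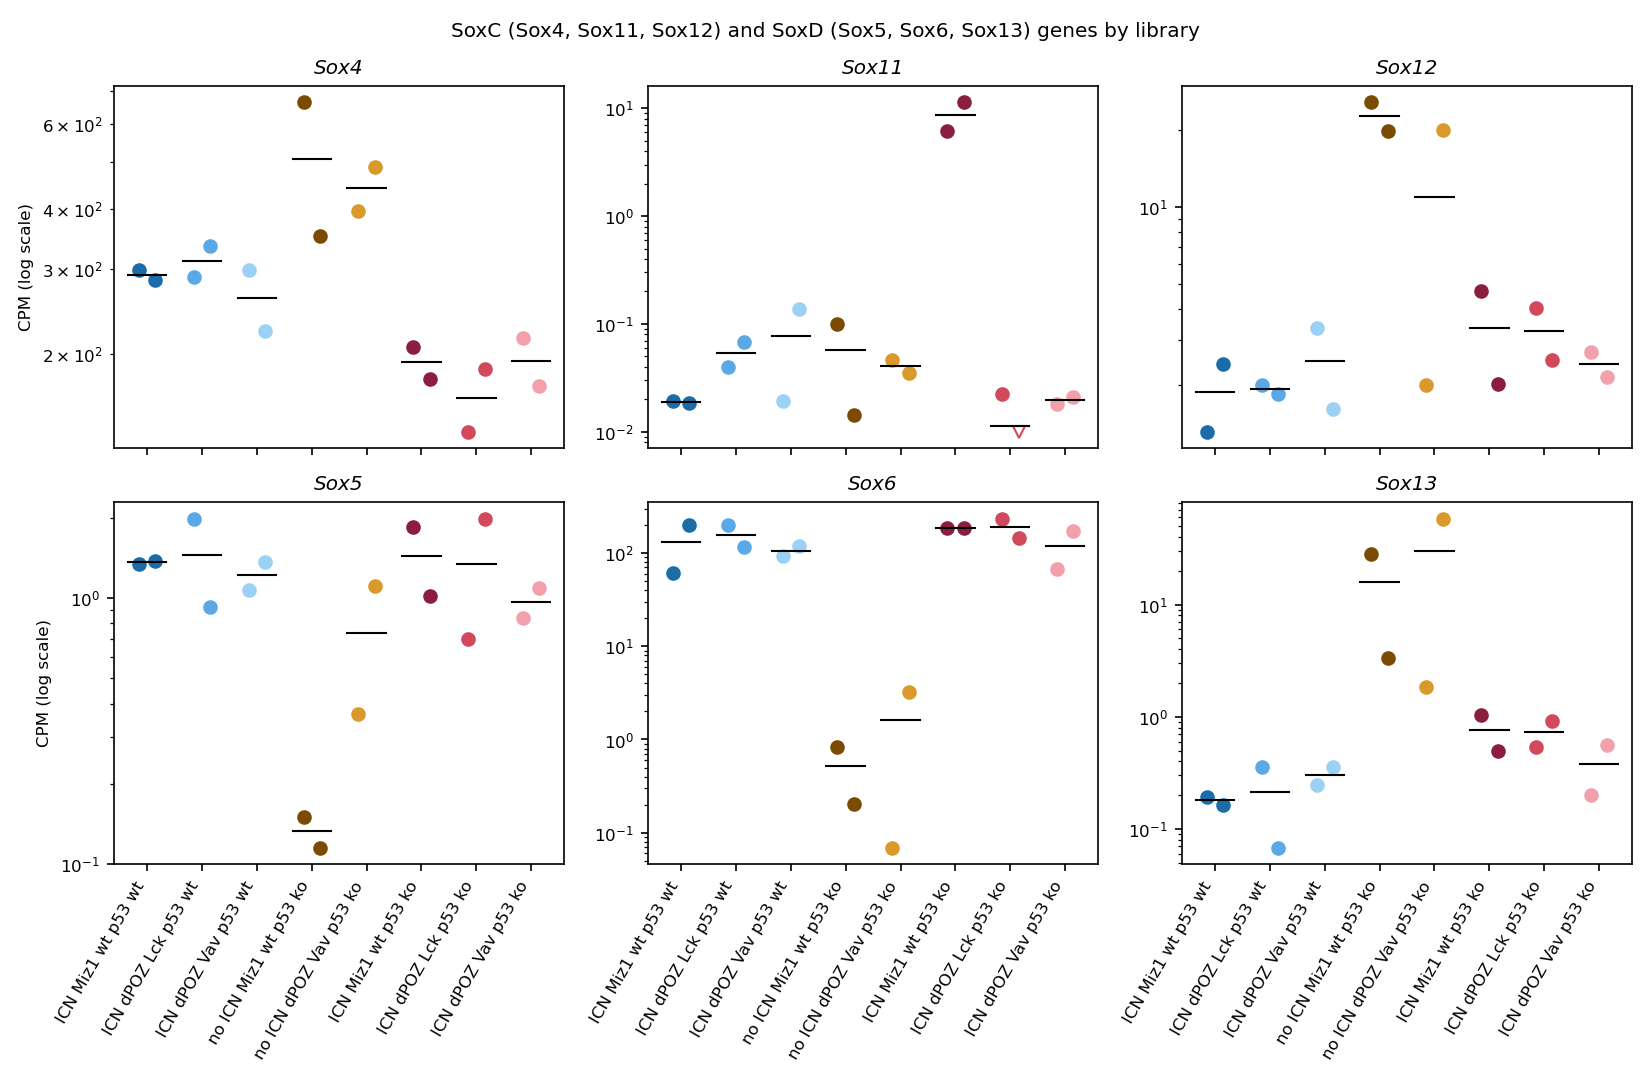
Level of each of the 6 genes in every library, as CPM on a log scale, by group; points are mice, bars are group means, and an open triangle marks a count of 0. Sox11 is high in 2 libraries only, Sox4 is lower in all ICN p53 ko than in all ICN p53 wt libraries, and Sox6 is far higher with ICN than without.

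Sox11 was expressed in 1 of the 8 groups. In the ICN Miz1 wt p53 ko group it had 220 and 572 counts, or 6.15 and 11.4 CPM. Replicate 1 of this group stood apart in sequencing: it had the fewest counts in genes of the 16 libraries, with 63.7% of its reads not uniquely aligned and 20.6% in genes, both extremes of the series. Replicate 2, at 48.2% and 35.1%, lay near the medians and had the higher Sox11 count. Each of the other 14 libraries held between 0 and 8 counts, 28 in all, or 0 to 0.136 CPM. These libraries range over ICN leukaemias with p53, p53-deficient leukaemias without ICN, and the 4 ICN deltaPOZ leukaemias without p53, whose counts were 1, 0, 1 and 1. The count of 0 was in ICN deltaPOZ Lck p53 ko replicate 2 and has an upper 95% limit of 0.0745 CPM (counting error only). Outside the high group, groups next to each other in the order of means overlapped, with 1 exception. No ICN deltaPOZ Vav (0.0347 and 0.0458 CPM, 2 counts each) lay above ICN deltaPOZ Vav p53 ko (0.0182 and 0.0209 CPM, 1 count each). The next highest group mean was 0.0778 ± 0.0830 CPM (SD, n = 2) in ICN deltaPOZ Vav p53 wt, which came from 1 and 8 counts. The library with 8 counts, replicate 2, had the most genes detected of all (25387, median 20675), with 56.2% of reads not uniquely aligned. Of 13 other Sox genes, 2 had no counts in it. In ICN Miz1 wt p53 ko replicate 1, 23972 genes were detected and 1 of those 13 had no counts.

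The gap between the 2 high libraries and the rest is the value by which the set was chosen, so it is a description without a test. The 4 ICN deltaPOZ p53 ko libraries held 3 Sox11 counts against 792 in the 2 Miz1 wt libraries, a ratio of 0.00166 per count in genes (95% interval 0.000341 to 0.00486, counting error only). Against the ICN Miz1 wt p53 wt libraries, which held 2 counts, the ratio was 488 (135 to 4035). Both intervals leave out the spread between mice and are no test of Sox11. Sox11 passed the filter on low counts only through the group in which it is high. In the contrast of Miz1 genotypes that chose the set, the groups did not overlap for 8.9% of the 17470 genes tested.

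In ICN p53 ko, deltaPOZ against Miz1 wt, the log2 fold changes were -0.12 for Sox4, -0.25 for Sox12, -0.33 for Sox5, -0.30 for Sox6 and -0.53 for Sox13, each smaller than its standard error (0.25, 0.70, 0.57, 0.83 and 1.11). The 95% intervals are wide, from -1.79 to 1.28 for Sox12 and from -2.97 to 1.91 for Sox13, and without 1 library the value of Sox13 ran from -0.96 to 0.08. No test is given for these, since the contrast chose the set. The 2 high libraries did not stand apart in the sum of 9 markers of nerve cells, the tissue in which Sox11 is best known. The sum was 6.68 and 9.39 CPM there, within the 3.14 to 37.7 CPM of all ICN libraries. Of these 9 genes, 1 had no counts in replicate 1 and 3 had none in replicate 2. The other ICN libraries had 0 to 5 such genes. Both libraries held few B cell transcripts, with 10 markers summing to 27.4 and 14.1 CPM against 46.4 to 166 CPM in the 4 ICN deltaPOZ p53 ko libraries. ICN Miz1 wt p53 wt replicate 2, with 1 Sox11 count, was at 27.5 CPM of these markers. Whether these marker levels bear on Sox11 was not tested. No coding gene lies close to Sox11: the nearest are Cmpk2 at 854427 bases and Dcdc2c at 1095221 bases. 13 Sox genes outside the 2 groups summed to 1.06 and 0.635 CPM in the 2 high libraries, below Sox11.

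Per kilobase of exon, Sox4 had the highest level of the 6 genes in every library. With ICN and p53 wt it was at 299 and 286 CPM in Miz1 wt, at 289 and 336 CPM in deltaPOZ Lck and at 299 and 223 CPM in deltaPOZ Vav. With ICN and p53 ko it was at 208 and 178 CPM in Miz1 wt, at 138 and 186 CPM in deltaPOZ Lck and at 216 and 172 CPM in deltaPOZ Vav. Without ICN it was at 664 and 352 CPM in Miz1 wt and at 395 and 488 CPM in deltaPOZ Vav. The levels thus fall into 3 bands that do not overlap: no ICN at the top, ICN p53 wt between, ICN p53 ko below. All ICN libraries lay below all libraries without ICN for 5.74% of genes tested. Within each band, neighbouring groups overlapped.

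All 6 ICN p53 ko libraries lay below all 6 ICN p53 wt libraries for Sox4, a separation in that direction shared by 1.63% of genes tested. In deltaPOZ leukaemias Sox4 averaged 178 ± 32.2 CPM without p53 and 287 ± 46.9 CPM with it (SD, n = 4 each). The log2 fold change was -0.69 (SE 0.21), and edgeR's quasi-likelihood test gave an adjusted p of 0.262, above the threshold of 0.05, where 0.0343% of all genes were called. With no filter on low counts the adjusted p was 0.0287, and over all 19 alternatives it ran from 0.0287 to 0.806. In Miz1 wt leukaemias the log2 fold change was -0.60 (SE 0.30, adjusted p = 0.945 by edgeR), where 0.00572% of genes were called. In both comparisons 0 of the 5 members other than Sox11 passed by edgeR or DESeq2. Over all genes, DESeq2 called 549 in the first and 138 in the second. Sox4 alone had an unadjusted p under 0.05 in the first, as 11.6% of all genes did, and none had in the second.

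The 12 T cell markers summed to 2453 to 5821 CPM in ICN p53 wt libraries, to 3422 to 5252 CPM in ICN p53 ko libraries and to 5025 to 12157 CPM without ICN, where Sox4 was highest too. Per 1000 CPM of those markers, Sox4 stood at 49.1 to 122 CPM in ICN p53 wt, at 37.2 to 47.1 CPM in ICN p53 ko and at 42.3 to 78.6 CPM in the libraries without ICN, which overlapped both. Pearson's r of Sox4 with the T cell sum was -0.09 within ICN p53 wt and 0.88 within ICN p53 ko (n = 6 each). The part of T cell RNA in the Sox4 levels was not tested. Macrophage markers summed to 97.2 to 199 CPM with p53 and to 162 to 534 CPM without it, and neutrophil markers to 52.8 to 898 and to 50.4 to 8998 CPM. By edgeR, 0 of 8 genes of either list passed in the p53 comparison in deltaPOZ, with 6 and 7 at an unadjusted p under 0.05 and median log2 fold changes of 0.83 and 3.83. Across the 12 ICN libraries Sox4 and the macrophage sum were inversely related (Pearson's r of -0.783, permutation p = 0.00199, adjusted 0.0398 over 60 relations; Spearman's rho of -0.594, permutation p = 0.0458, adjusted 0.577). Within the p53 wt and the p53 ko libraries r was -0.642 and -0.713 (n = 6 each), and without the 2 libraries farthest from the median it was -0.627. The permutations shuffled libraries across genotypes. Their p therefore also takes in the difference of Sox4 and of this sum between p53 genotypes. For neutrophils r was -0.526 (permutation p = 0.0798, adjusted 0.435; Spearman's rho of -0.434, permutation p = 0.162, adjusted 0.706). The part of these cells in the Sox4 levels was not tested. Gm26735, a long noncoding RNA that overlaps Sox4 on the opposite strand, was at 2.20 to 3.27 CPM with p53 and at 1.35 to 1.82 CPM without it in ICN leukaemias. The strand setting of the authors' counting is not given in the sources used here, so reads of the pair cannot be told apart with certainty.

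Sox12, the third SoxC gene, was low with ICN. It was at 1.32 to 4.70 CPM (median 2.29) in the 12 ICN libraries. Without ICN it reached 25.6 and 19.8 CPM in Miz1 wt and 19.9 CPM in deltaPOZ Vav replicate 2, while deltaPOZ Vav replicate 1 was at 2.01 CPM, inside the ICN range. Sox12 thus separated 3 of the 4 libraries without ICN from all others.

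Sox6 had the second highest level per kilobase of exon with ICN and was nearly silent without it. In ICN p53 wt it was at 61.5 and 202 CPM in Miz1 wt, at 197 and 117 CPM in deltaPOZ Lck and at 92.5 and 119 CPM in deltaPOZ Vav. In ICN p53 ko it was at 185 and 184 CPM in Miz1 wt, at 233 and 144 CPM in deltaPOZ Lck and at 67.4 and 171 CPM in deltaPOZ Vav. Without ICN it was at 0.826 and 0.201 CPM in Miz1 wt and at 0.0687 and 3.19 CPM in deltaPOZ Vav. All 12 ICN libraries lay above all 4 others, as for 8.25% of genes tested, and the 6 ICN groups overlapped from each to the next.

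Within the ICN libraries, Sox6 followed the erythroid markers. Sox6 varied 3.79-fold over the 12 libraries and the sum of 11 erythroid markers (globins, Klf1, Gata1, Slc4a1 and others) varied 5.36-fold, but Sox6 per 1000 CPM of that sum stayed between 8.27 and 13.05 CPM, a 1.58-fold range. Pearson's r on the log2 scale was 0.971 and Spearman's rho 0.993, each with a permutation p of 1e-05, the smallest that 100000 permutations can give, and 0.0006 after adjustment over the 60 pairs of a member and a marker list. Without the 2 libraries farthest from the median r was 0.951, and it was 0.981 within p53 wt and 0.959 within p53 ko (n = 6 each). Without ICN, where the erythroid sum was 2.80 to 38.2 CPM, Sox6 per 1000 CPM of it ran from 8.09 to 254 CPM. The highest erythroid sum and the highest Sox6 level of the 4 were in the same library, deltaPOZ Vav replicate 2.

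**Figure D2:**
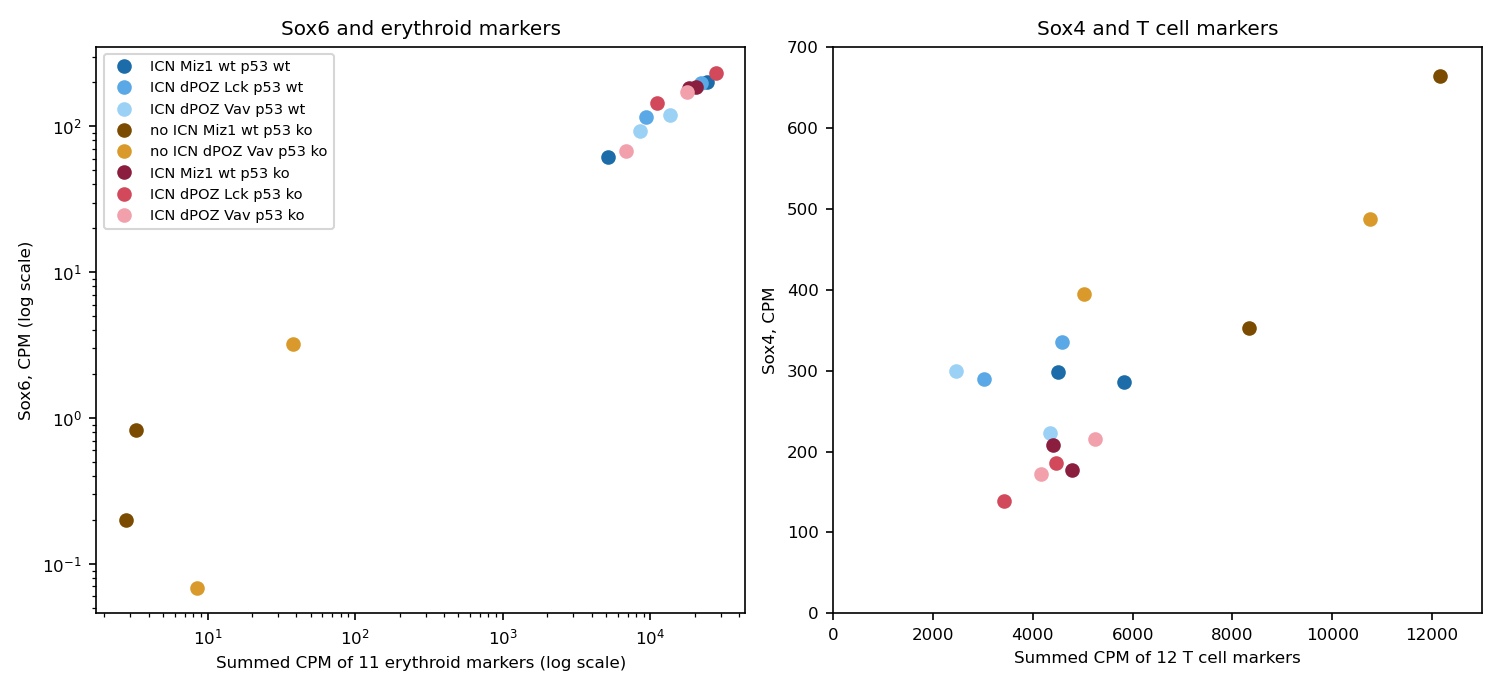
Left, Sox6 (CPM, log scale) against the summed CPM of 11 erythroid markers (log scale); right, Sox4 (CPM) against the summed CPM of 12 T cell markers, 1 point a library, coloured by group. On the left the 12 ICN libraries run along 1 line from 61.5 to 233 CPM of Sox6; on the right the 6 ICN p53 ko libraries lie below the 6 ICN p53 wt libraries over much the same range of T cell markers.

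Sox5 and Sox13 were low in most libraries. Sox5 was at 0.698 to 1.98 CPM (median 1.21) with ICN, at 0.150 and 0.115 CPM without ICN in Miz1 wt, and at 0.366 and 1.11 CPM without ICN in deltaPOZ Vav. Only the Miz1 wt group without ICN was separate from the rest. Across the 12 ICN libraries Sox5 was directly related to the sum of 9 endothelium and stroma markers. Pearson's r was 0.784 (permutation p = 0.00194, adjusted 0.0398 over 60 relations). Spearman's rho was 0.713 (permutation p = 0.0116, adjusted 0.232). Within the p53 wt and the p53 ko libraries r was 0.454 and 0.881 (n = 6 each). The part of these cells in the Sox5 levels was not tested. Sox13 was at 0.0677 to 1.03 CPM (median 0.357) with ICN. Without ICN it was at 28.5 and 3.33 CPM in Miz1 wt and at 1.83 and 58.2 CPM in deltaPOZ Vav. All 4 libraries without ICN lay above all 12 with it, as for Sox4. They also differed among themselves 8.56-fold and 31.8-fold within the 2 groups.

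Compared per kilobase of exon, Sox4 made up 63.2% to 93.2% of the summed level of the 6 genes in ICN libraries and 84.8% to 98.9% without ICN. Sox6 made up 6.19% to 34.4% with ICN and 0.00556% to 0.180% without it. Sox13 took up to 11.2% and Sox12 up to 5.64% in libraries without ICN, against at most 0.425% and 1.97% with it. Sox11 reached 2.65% of the sum in the library where it was highest. The summed level was 45.7 to 78.4 CPM per kilobase with ICN and 78.7 to 151 without.

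**Figure D3:**
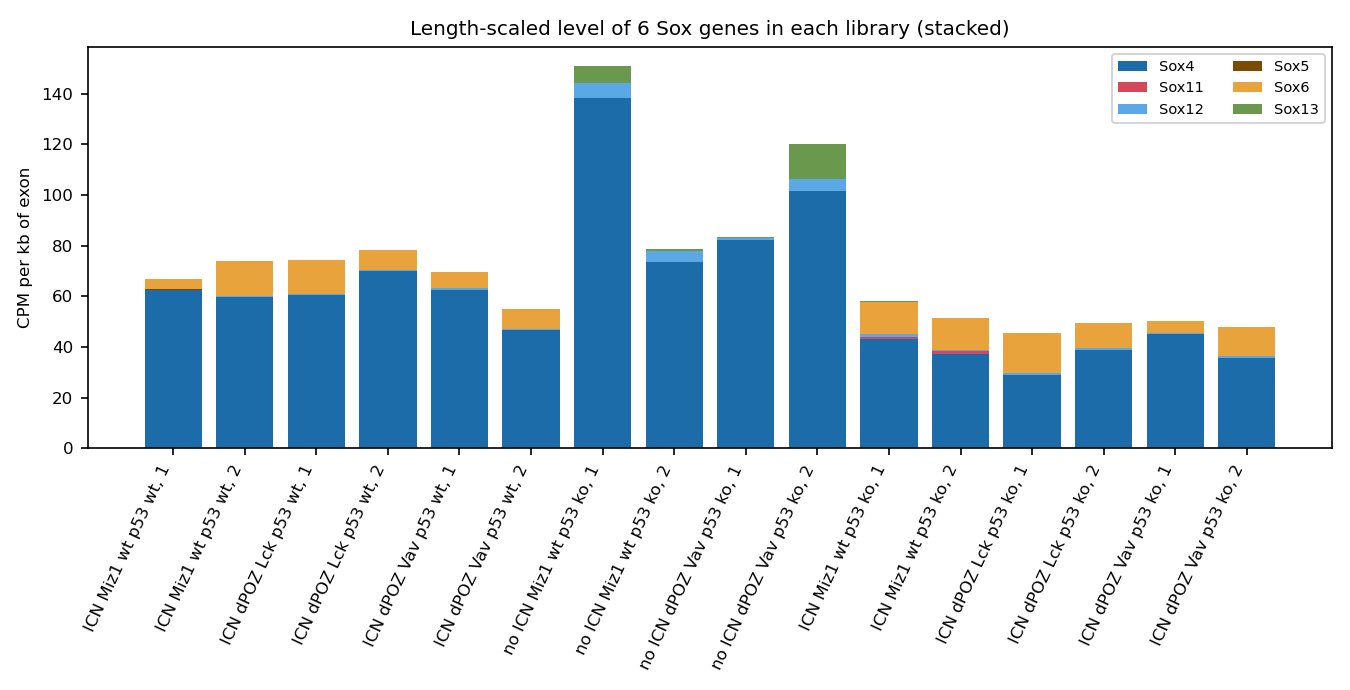
Level of the 6 genes per kilobase of exon in each library (CPM per kilobase), stacked. Sox4 fills most of every bar, Sox6 forms the second layer in the ICN libraries, and Sox12 and Sox13 show in libraries without ICN.

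The comparison of ICN with no ICN, within p53 ko mice, moved all 5 members tested. Averaged over Miz1 wt and deltaPOZ Vav, Sox5 and Sox6 rose and Sox4, Sox12 and Sox13 fell (5 of 5 called by edgeR and by DESeq2). By edgeR this comparison called 24.0% of all genes, 12.9% higher and 11.1% lower, and DESeq2 called 5321 genes. Sox6 averaged 152 ± 56.8 CPM with ICN and 1.07 ± 1.45 CPM without (SD, n = 4 each), a log2 fold change of 7.37 (SE 0.93, adjusted p = 0.000393 by edgeR). Sox4 averaged 193 ± 21.8 against 475 ± 138 CPM, a log2 fold change of -1.29 (SE 0.21, adjusted p = 0.00177 by edgeR). For these genes and for Sox13, at 0.574 ± 0.345 against 23.0 ± 26.5 CPM (log2 -5.34, SE 1.07, adjusted p = 0.00506 by edgeR), the 4 ICN libraries did not overlap the 4 others. Such a separation occurred for 21.7% of genes.

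Sox5 and Sox12 overlapped between the same libraries. Sox5 averaged 1.19 ± 0.446 against 0.436 ± 0.464 CPM (log2 1.89, SE 0.50, adjusted p = 0.0186 by edgeR), and the call was lost without any 1 of 3 libraries (adjusted p = 0.0584 to 0.065), namely no ICN Miz1 wt replicate 2, ICN Miz1 wt p53 ko replicate 1 and ICN deltaPOZ Vav p53 ko replicate 2. Sox12 averaged 2.90 ± 1.24 against 16.8 ± 10.3 CPM (log2 -2.47, SE 0.60, adjusted p = 0.0138 by edgeR). Its log2 fold change was -1.24 (adjusted p = 0.0633) without no ICN deltaPOZ Vav replicate 2, and the call was also lost without ICN deltaPOZ Vav p53 ko replicate 2 (adjusted p = 0.0579). Sox4, Sox6 and Sox13 kept their calls without any 1 of the 16 libraries, although without no ICN deltaPOZ Vav replicate 2 the log2 fold change was -3.31 for Sox13 and 9.65 for Sox6.

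Within single Miz1 genotypes fewer members passed. In deltaPOZ Vav, Sox6 rose (log2 6.16, adjusted p = 0.0147) and Sox4 (-1.19, 0.0351) and Sox13 (-6.29, 0.0349) fell, 3 of the 5 members other than Sox11, where 8.06% of genes were called by edgeR (4.99% higher, 3.07% lower). Without no ICN deltaPOZ Vav replicate 2, the log2 fold change of Sox13 was -2.25 there, with an adjusted p of 0.276, and its call was also lost without either ICN library (up to 0.207). In Miz1 wt, Sox5 (3.42, adjusted p = 0.0180) and Sox6 (8.57, 0.00457) rose and Sox4 (-1.40, 0.0159) fell, 3 of 5 members where 10.4% were called (6.7% higher, 3.69% lower). The 2 groups did not overlap for 52.7% of genes in deltaPOZ Vav and for 50.5% in Miz1 wt. Sox4 and Sox6 passed in both genotypes with all libraries. Sox4 lost its call in deltaPOZ Vav without any 1 of 5 libraries (ICN deltaPOZ Lck p53 wt replicates 1 and 2, ICN deltaPOZ Vav p53 ko replicates 1 and 2 and no ICN deltaPOZ Vav replicate 2; adjusted p up to 0.225). It lost it in Miz1 wt without any 1 of 3 (both ICN libraries and no ICN replicate 1; up to 0.0880), where Sox5 lost its call without ICN replicate 1 or either no ICN library (up to 0.0879). Sox6 lost its call in deltaPOZ Vav without ICN deltaPOZ Vav p53 ko replicate 2 (adjusted p = 0.0687). Sox12 had log2 fold changes of -2.18 and -2.76 in the 2 genotypes and passed in neither (adjusted p = 0.133 and 0.0649), whereas DESeq2 called it in both. In deltaPOZ Vav its direction was not stable: over the 19 alternatives the log2 fold change ran from -3.05 to 0.277. There no ICN replicate 1 (2.01 CPM) lay below both ICN libraries (2.71 and 2.15 CPM), and no ICN replicate 2 (19.9 CPM) lay above them.

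Markers of other blood cells moved in this comparison too, in which 12.9% of all genes were called higher and 11.1% lower. All 11 erythroid markers and all 8 neutrophil markers tested rose with ICN, as did 8 of 10 B cell markers, with median log2 fold changes of 10.83, 10.26 and 3.61 against -0.02 over all genes. Of 12 T cell markers, 3 fell (Bcl11b, Lck and Thy1) and 1 rose (Cd5). Of NK cell markers 4 of 6 rose and of macrophage markers 3 of 8, with medians of 2.45 and 0.69. Of cartilage genes, 1 of 3 tested fell (Acan), and of genes of nerve cells, 2 of 5 (Ncam1 and Elavl3). Of endothelium and stroma genes, 1 of 8 tested rose and 2 fell (median -0.95). Of thymic epithelium genes, 1 of 3 tested fell (median -2.87). The part of these cells in the Sox levels was not tested. Per 1000 CPM of erythroid markers, Sox6 was at 8.27 to 13.05 CPM with ICN. Without ICN it was at 254, 71.8 and 83.7 CPM in 3 libraries and at 8.09 CPM, from 3 counts of Sox6, in deltaPOZ Vav replicate 1.

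**Figure D4:**
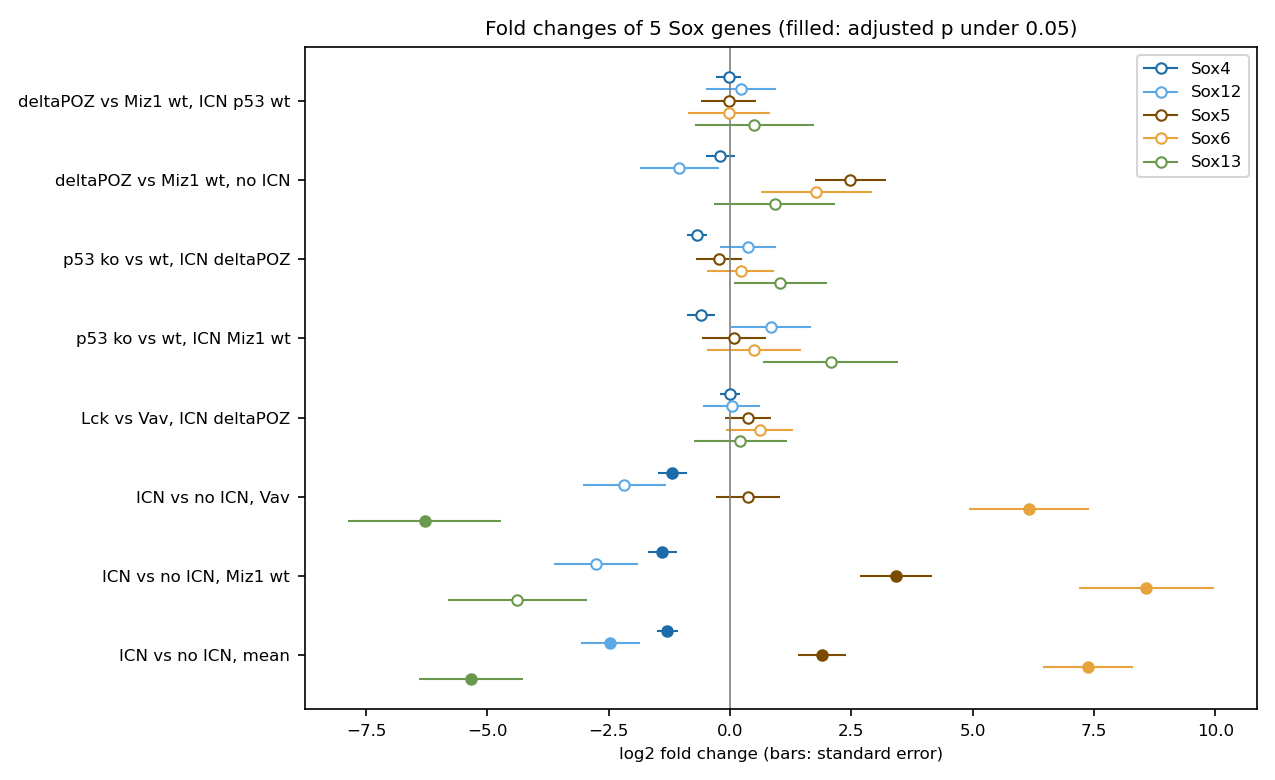
Log2 fold changes of 5 members in 8 comparisons with standard errors as bars; filled circles have an adjusted p under 0.05. Filled circles occur in the ICN comparisons only, and Sox6 lies farthest to the right there; Sox11 is not drawn.

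None of the 5 members other than Sox11 passed the test for Miz1 genotype outside the contrast that chose the set. In ICN p53 wt leukaemias, 0 of the 5 members other than Sox11 passed for deltaPOZ against Miz1 wt by edgeR or DESeq2, none with an unadjusted p under 0.05, where 0.0% of genes were called by edgeR and 16 by DESeq2. Sox4 differed by -0.03 on the log2 scale (95% interval -0.59 to 0.53) and Sox6 by -0.03 (-1.88 to 1.82). Sox11 held 14 counts in 4 deltaPOZ libraries and 2 counts in 2 Miz1 wt libraries there, a ratio of 3.61 (0.828 to 32.7, counting error only). Of the 14 counts, 8 were in ICN deltaPOZ Vav p53 wt replicate 2, the library with the most genes detected. Without ICN, 0 of those 5 passed by edgeR or DESeq2, where 0.0% of genes were called by edgeR and 233 genes by DESeq2. Sox5 alone had an unadjusted p under 0.05, as did 7.68% of genes (log2 2.48, SE 0.73, adjusted p = 0.448 by edgeR). Without a filter on low counts, Sox6 passed in that comparison (log2 1.77, adjusted p = 0.000117), although its 2 deltaPOZ libraries lay below and above both Miz1 wt libraries. The effect of deltaPOZ gave no called interaction for those 5 members between p53 ko without ICN and p53 wt with ICN by edgeR or DESeq2. Over all genes, edgeR called 0.0% there and DESeq2 called 84 genes. Sox5 had an unadjusted p under 0.05, as did 5.25% of genes.

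The suffixes Lck and Vav gave 0 of the 5 members other than Sox11 called among the 8 ICN deltaPOZ libraries by edgeR or DESeq2. None had an unadjusted p under 0.05. Over all genes, edgeR called 0.0% there and DESeq2 called 22 genes. Sox4 averaged 238 ± 90.8 CPM in Lck and 228 ± 52.98 CPM in Vav (SD, n = 4 each; 95% interval of the log2 difference -0.45 to 0.46). Sox6 averaged 173 ± 52.3 and 113 ± 44.5 CPM (-0.90 to 2.13).

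Genes linked to Sox factors were taken from lists chosen by name. Of 13 other Sox genes, 4 could be tested, and their sum was 0.270 to 1.59 CPM with ICN and 0.976 to 6.02 CPM without it. Sox14 fell with ICN (log2 -4.72, adjusted p = 0.0382 by edgeR), as did 11.1% of all genes. Without ICN it was at 3.08 and 0.0144 CPM (1 count) in Miz1 wt and at 1.37 and 4.62 CPM in deltaPOZ Vav. With ICN it was at 0 to 0.325 CPM, a range that holds the library with 1 count. None of the 4 passed in the ICN comparison within a single Miz1 genotype. Among 11 of 12 TCF/LEF, Tox and beta-catenin genes tested, which include HMG box relatives of the Sox factors, 5 fell and 1 rose with ICN, where 11.1% of all genes fell and 12.9% rose, with a median log2 fold change of -0.44. Tcf7, a T cell HMG box factor, averaged 518 CPM with ICN and 934 without, and Axin2, a target of beta-catenin, 19.8 and 39.6 CPM. Nkd1, Tox2 and Tox4 also fell, and Tcf7l2 rose from 0.250 to 1.59 CPM.

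Interleukin 17 producing gamma-delta T cells are a lineage in which Sox4 and Sox13 act. Of 10 genes of this lineage tested, 2 rose with ICN and 2 fell, where 12.9% of all genes rose and 11.1% fell. The median log2 fold change of these 10 genes was 0.19. Il1r1 and Ccr6 rose and Il17re fell. Il1r1 averaged 6.48 CPM with ICN and 0.439 without, and Il17re 0.0307 and 11.4 CPM. Of 8 tested genes reported as targets of Sox4 or Sox11 in other tissues, 1 rose with ICN: Pax5, a B cell factor that moved with the other B cell markers. The median of that list was -0.18. By edgeR, 0 genes of these 4 lists passed in the p53 comparisons, the Lck and Vav comparison or the Miz1 comparisons, with 0 to 3 genes a list at an unadjusted p under 0.05.

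The genes most like each member over the 16 libraries were ranked by Pearson's r of log2 CPM among 11273 genes, as a description. The libraries share their groups, so r reflects the ICN contrast in most cases. Sox6 was most like Abcb4 (0.996), Aqp9 (0.986) and Prokr1 (0.986), and within the 12 ICN libraries these stood at 0.913, 0.892 and 0.726. Sox13 was most like Ccnd1, which encodes cyclin D1 (0.964), Galt (0.946) and Cpxm1 (0.944). Sox4 was most like Dpy19l3 (0.928), Prdm11 (0.926) and Csnk1e (0.926), with 0.775 to 0.779 within ICN libraries. Sox12 was most like Fdft1 (0.961), Sept9 (0.933) and Tmx2 (0.927), and Sox5 like Pcdh7 (0.925), Arap2 (0.900) and Il1r1 (0.887). Sox11 had no close match: its highest values were 0.658 for Dnajb1, 0.653 for Notch4, a Notch receptor, and 0.635 for Ptar1. By ranks those 3 stood at 0.538, 0.365 and 0.297. The r of Sox11 rests on the 2 libraries in which it is high, whose values chose the set, so it describes them only. Dnajb1 was at 167 and 188 CPM there (highest of the other 14 libraries 154). Notch4 was at 3.41 and 1.69 CPM (1.58) and Ptar1 at 35.8 and 22.6 CPM (24.8).

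The nearest coding gene did not share the pattern of Sox6. 1110004F10Rik starts 601 bases away on the opposite strand and was at 61.4 to 96.2 CPM over all 16 libraries, whereas Sox6 ran from 0.0687 to 233 CPM. Sox6os, an antisense gene inside Sox6, had 1 to 5 counts a group. Insc, the nearest coding gene on the other side at 620489 bases, had 0 to 14. Both were too low to be compared with Sox6.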

How the data were processed

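Per the labels' protocols, total RNA was made into stranded mRNA libraries (TruSeq). TopHat2 2.0.10, SAMtools, HTSeq and DESeq are named in the submitters' processing notes, with builds mm10 and GRCm38; neither the gene annotation nor the strand setting of the counting is given in them. The deposited files hold whole-number counts per Ensembl gene, made by the authors. The 16 files have 41214 gene rows, and GENCODE M21 named 40340. Rows that name no gene were left out; reads not uniquely aligned were 45.8% to 63.7% of all rows' sum.

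Members and lists were chosen with earlier results of these data known. Named genes are the 6 members, their nearest and overlapping genes, called genes of the lists (1 is not reported here) and the 3 most similar genes per member. Counts were fitted with edgeR 4.0.16 (R 4.3.3; TMM, filterByExpr, quasi-likelihood test, 8 groups together, 17470 genes, residual df 8), with Benjamini-Hochberg adjustment over all genes and a threshold of 0.05. Similarity and marker relations used log2 CPM. No test is given for the contrast that chose Sox11 or for Sox11 in contrasts with those libraries. Alternatives were RLE size factors, no filter, DESeq2 1.42.0 and leaving out each library. The fit was also run on simulated data with less spread than was fitted here (common dispersion 0.208), and nothing is concluded from that run. Intervals on counts are 95% and cover counting error only.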

Additional observations from a re-analysis of the deposited data

Results flagged for a closer look

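Sox11 had fold changes of opposite sign in the comparison of ICN with no ICN in p53 ko mice of the 2 Miz1 genotypes. In Miz1 wt the log2 fold change was 7.34, from 792 counts with ICN and 5 without, and both ICN libraries lay above both others (groups did not overlap for 50.5% of genes). In deltaPOZ Vav it was -0.95, from 2 counts with ICN and 4 without, a ratio of 0.492 with a counting interval of 0.0445 to 3.43, and both ICN libraries lay below both others (52.7% of genes); the interval spans no change. The difference between the genotypes was not tested, since the Miz1 wt libraries with ICN are those in which Sox11 was noticed. A search by Dixon's test for a single outlying library among groups of 4 (12 groups) flagged none. With 4 libraries this test can flag only a very large gap, so nothing is concluded from it. Leaving out single libraries did change calls and fold changes of members, as given above.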

How the results depend on the processing

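No paired analysis was possible because the labels give no replicate numbers and the numbers used here follow the order of deposit. Without a filter on low counts, 1 member passed in each of the Miz1 comparison without ICN (Sox6), its difference from the one in ICN p53 wt (Sox6, adjusted p = 0.00527) and the p53 comparison in deltaPOZ (Sox4), where the reported fit called 0; the cause was not tested. In the ICN comparison in Miz1 wt, 5 members passed without the filter and 5 with DESeq2, against 3, the added ones being Sox12 and Sox13. Leaving out 1 library gave 0 to 4 members called in the ICN comparison in deltaPOZ Vav, 1 to 5 in Miz1 wt and 3 to 5 in the mean of both, and 0 in every other comparison. In deltaPOZ Vav, 1 was called without no ICN deltaPOZ Vav replicate 2, 1 without ICN deltaPOZ Vav p53 ko replicate 1 and 0 without its replicate 2. In Miz1 wt, 1 was called without replicate 1 of either group compared, and 5 without either library of no ICN deltaPOZ Vav, which is not in that comparison but shares its estimate of spread. The mean of both gave 3 without ICN deltaPOZ Vav p53 ko replicate 2. RLE size factors changed no call of a member. No value called in the reported fit changed sign in any of these. Sox12 in deltaPOZ Vav, not called in that fit, did change sign (log2 -3.05 to 0.277). With 2 mice a group, precision is limited by their spread, and for Sox11 outside its high group by 0 to 8 counts a library.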
